A study of Mus musculus with 6 samples.

Results

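The adhesion G protein-coupled receptors were followed across 6 RNA-seq libraries of mouse first molar tooth germs in which 1 member of the family, Adgrf4, had been targeted. Members were taken by name, as every gene whose symbol begins with Adgr together with Celsr1, Celsr2 and Celsr3. The count table held 30 such protein-coding genes among 48709, and the authors' normalized table held 22 of them among 20162. The remaining 8 were looked up in the raw counts, and 18 of the 30 passed the filter on low counts and were tested among 16011 genes. There were 3 libraries of Gpr115-/- mice (Gpr115-KO) and 3 of wild-type littermates (WT), all of the C57BL/6 strain at postnatal day 7, and Gpr115 is the older symbol of Adgrf4. The labels state neither which part of the gene the deletion removed nor whether each library is a separate animal, and p-values therefore speak of the variation among these 6 libraries.

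Adhesion G protein-coupled receptors carry a long extracellular region that holds on to matrix or to neighbouring cells, joined to a membrane part with 7 helices. In many of them the GAIN domain cuts the protein in 2 near the membrane, and the freed start of the membrane part acts as a tethered agonist that switches on G proteins. The family is divided by sequence into the subfamilies A, B, C (the Celsr genes), D, E, F, G, L and V. Adgrf4 belongs to subfamily F with Adgrf1, Adgrf2, Adgrf3 and Adgrf5, and in mice it is known for its expression in epithelia, ameloblasts included.

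Library totals ran from 8317302 to 10328654 counts in Gpr115-KO and from 8833612 to 11122821 in WT. Levels are given as CPM, counts per 1000000 of a library size scaled by TMM (a trimmed mean that sets the bulk of the genes equal), and between genes as CPM per kb of exonic length. The tissue label held in every library, with 91551 to 201823 CPM in Gpr115-KO and 106932 to 140036 CPM in WT for the sum of 5 secretory ameloblast genes, among them Amelx and Ambn. Some libraries stood apart in other cell markers. Gpr115-KO replicate 2 had 1917 CPM over 5 maturation ameloblast genes, against 4965 and 8582 CPM in the other Gpr115-KO libraries and 6176 to 6205 CPM in WT. That sum is mostly Odam, at 1473 CPM in replicate 2, 4583 and 7942 CPM in the other Gpr115-KO libraries and 5674 to 5726 CPM in WT. Amtn lay within the WT range in replicate 2, and Klk4, Slc24a4 and Wdr72 were about as low in Gpr115-KO replicate 3. Replicate 2 also had 199 CPM over 8 skeletal muscle genes, against 19.6 to 53.5 CPM elsewhere. Gpr115-KO replicate 3 had 994 CPM over 12 general epithelial genes, against 1658 to 2178 CPM in the other libraries. Most of that sum is Krt14 and Krt5. Both were lowest in Gpr115-KO replicate 3, as was Cdh1, while Epcam was highest there at 17.9 CPM. In bulk tissue, fewer cells of a type and less RNA per cell cannot be told apart.

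Adgrf4 (ENSMUSG00000023918, chr17:42656891-42692284 on GRCm38, minus strand) was the receptor of the highest level in WT and was lower in every Gpr115-KO library, yet it did not vanish. The Gpr115-KO libraries held 344, 193 and 301 Adgrf4 reads, and the WT libraries 740, 550 and 664. Per length this came to 12.8, 6.74 and 9.0 CPM per kb in Gpr115-KO, against 21.9, 20.4 and 22.1 CPM per kb in WT. The WT libraries lay close together, the Gpr115-KO libraries were spread more widely, and the groups did not overlap. The Gpr115-KO level was 44.3% of the WT level, with a log2 fold change of −1.18 (95% interval −1.65 to −0.70). The quasi-likelihood test of edgeR gave an adjusted p over all genes of 0.0887, short of the 0.05 threshold. With each library left out in turn, 1 of 6 fits passed, the one without Gpr115-KO replicate 1, which has the highest residual level (−1.45, edgeR adjusted p = 0.0143). In the other 5 the edgeR adjusted p was 0.143 to 0.325. DESeq2 on all 6 libraries gave −1.17 (adjusted p = 0.000488). Reads from exons that the deletion left in place cannot be separated from those of an intact transcript.

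The level of Adgrf4 was also set against marker genes of cells it may come from. Taken as a share of the summed CPM of 12 general epithelial genes, among them Krt14, Krt5 and Cdh1, it was 2.07%, 0.947% and 2.77% in Gpr115-KO, against 3.63%, 3.77% and 3.75% in WT. The 3 WT libraries were nearly equal on this scale and the groups again did not overlap. The mean log2 ratio was lower in Gpr115-KO by 1.08, given as the difference −1.08 (two-sided exact permutation test, p = 0.1, the smallest that 3 libraries against 3 allow). Most of that epithelial sum is Krt14 and Krt5. Cdh1 was the only tested gene of the list without overlap, lower in Gpr115-KO (log2 fold change −0.62, edgeR adjusted p = 0.245). Over all genes 8.99% were lower without overlap. Against the 5 secretory ameloblast genes the Adgrf4 share was 0.0332%, 0.0102% and 0.0301% in Gpr115-KO and 0.0628%, 0.0513% and 0.0482% in WT. Against the 5 maturation ameloblast genes it was 0.457%, 1.08% and 0.554% in Gpr115-KO and 1.08%, 1.01% and 1.09% in WT. On this last scale Gpr115-KO replicate 2, the library low in Odam, which is most of that sum, lay within the WT range. The other Gpr115-KO libraries lay below it.

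**Figure D1:**
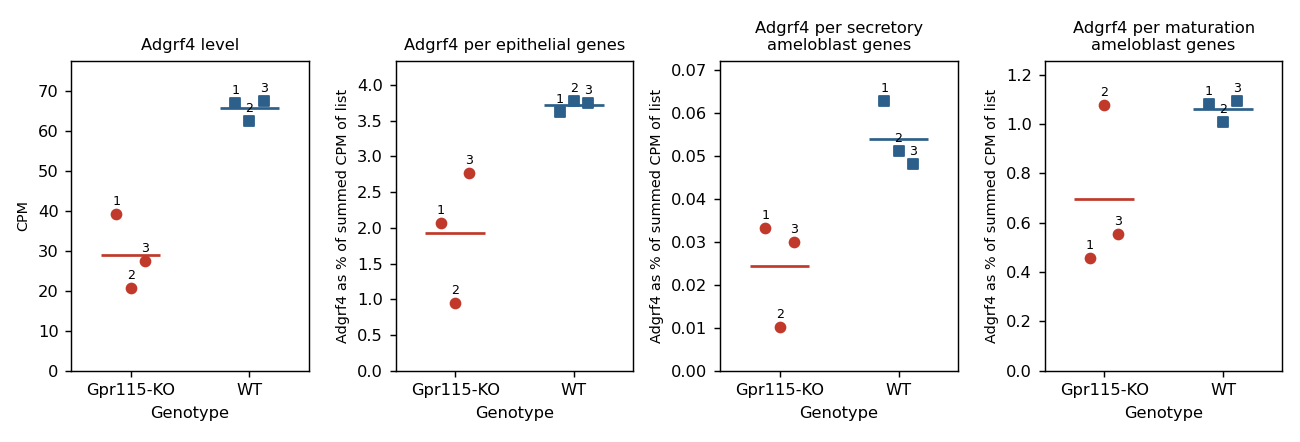
Adgrf4 in each library (points numbered by replicate, line at the group mean), as CPM and as a percent of the summed CPM of 3 marker lists. Gpr115-KO points lie below all WT points in the first 3 panels, and replicate 2, at 1.08%, lies within the WT range in the maturation panel.

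Adgrf2, Adgrf1 and Adgrf5 sit near Adgrf4 on chromosome 17. The promoters of Adgrf4, Adgrf1 and Adgrf5 are shown because these genes share a locus and differ widely in level, and that of Adgrf2 was not analysed here. Measured between the nearest gene ends, Adgrf2 lies 16.7 kb away, Adgrf1 578 kb away and Adgrf5 668 kb away. Below are the 250 bases before the start of transcription, from RefSeq on GRCm38.p6, read 5′ to 3′ on each gene's strand. Capitals mark matches, on either strand, to TGANTCA (a loosened form of the AP-1 motif, with any middle base) or GGGCGG (the GC box). TATAAA and the Grainyhead motif AACCNGTT were searched as well.
Adgrf4 promoter, chr17:42692285-42692534, minus strand: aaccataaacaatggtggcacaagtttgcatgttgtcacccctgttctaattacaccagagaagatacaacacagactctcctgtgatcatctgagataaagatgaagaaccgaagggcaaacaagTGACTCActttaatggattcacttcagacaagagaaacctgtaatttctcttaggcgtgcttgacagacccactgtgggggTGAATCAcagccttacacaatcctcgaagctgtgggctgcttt
Adgrf1 promoter, chr17:43270097-43270346, plus strand: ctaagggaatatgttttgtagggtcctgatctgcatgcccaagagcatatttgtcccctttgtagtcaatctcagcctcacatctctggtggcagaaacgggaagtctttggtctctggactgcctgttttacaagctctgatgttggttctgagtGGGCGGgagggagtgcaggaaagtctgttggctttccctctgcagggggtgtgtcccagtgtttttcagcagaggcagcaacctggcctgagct
Adgrf5 promoter, chr17:43360181-43360430, plus strand: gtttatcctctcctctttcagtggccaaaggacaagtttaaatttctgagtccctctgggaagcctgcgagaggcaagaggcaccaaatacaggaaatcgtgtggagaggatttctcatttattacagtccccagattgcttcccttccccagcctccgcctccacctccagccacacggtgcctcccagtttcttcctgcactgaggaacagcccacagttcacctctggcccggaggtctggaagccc
The Adgrf4 window held 2 matches to TGANTCA. Among 32807 promoter windows of this length 6.75% held at least 1 such match and 0.338% held 2 or more. Elsewhere in the family, a window of Adgrg1 (chr8:94984149-94984398) also held 2 matches to TGANTCA, and that of Adgrg4 held 1. The Adgrf1 window held 1 GGGCGG match, a motif found in 32.7% of windows, and the Adgrf5 window shown held no match to any of the 4 motifs. TATAAA (12.4% of windows) and AACCNGTT (1.78%) were in none of the 3 windows shown. The number of CG pairs was 3 before Adgrf4, 2 before Adgrf1 and 5 before Adgrf5, against a median of 6 over all windows. Adgrf5 has a further start in RefSeq, and the window before it (chr17:43389216-43389465), not printed, held 7 CG pairs. A match is a description of these letters and not a binding site.

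Adgrf5 was the only other member of subfamily F with more than 3 reads in all. It encodes a receptor known for restraining surfactant in the lung and for its expression in endothelium. Its reads numbered 64, 35 and 58 in Gpr115-KO, against 50, 31 and 26 in WT. The levels were 7.29, 3.74 and 5.30 CPM in Gpr115-KO and 4.53, 3.52 and 2.64 CPM in WT, so the groups overlapped. The mean in Gpr115-KO came to 153% of that in WT, and the log2 fold change to 0.60 (SE 0.34, edgeR adjusted p = 0.499). The 95% interval of the fold ran from 0.90 to 2.55, so the data do not settle whether Adgrf5 changed. Put side by side, Adgrf4 had 9.52 CPM per kb in Gpr115-KO and 21.5 in WT, a difference of −12.0, while Adgrf5 had 0.604 in Gpr115-KO and 0.396 in WT, a difference of 0.21. As a percent of 8 summed endothelial genes, which were 62.6 to 99.8 CPM in Gpr115-KO and 80.1 to 87.2 CPM in WT, Adgrf5 stood at 9.10%, 5.97% and 5.32% in Gpr115-KO and 5.20%, 4.22% and 3.30% in WT. On that scale the groups did not overlap, but only narrowly (5.32% against 5.20%), and no test was made of it. Gpr115-KO replicate 2, whose 3.74 CPM of Adgrf5 lay within the WT range, had the lowest endothelial sum.

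The other 3 genes of subfamily F were close to silent in both genotypes. Adgrf1, which encodes a receptor for the lipid synaptamide in neurons, had 0 reads in all 6 libraries. Adgrf2 had 0 reads in each Gpr115-KO library and 0, 0 and 2 in WT. Adgrf3 had 2, 1 and 0 reads in Gpr115-KO and 0 in each WT library. A count of 0 allowed a level of up to 0.274 to 0.342 CPM in a Gpr115-KO library and 0.272 to 0.341 CPM in a WT library, counting error only. Reads of all 4 paralogs together came to 66, 36 and 58 in Gpr115-KO and 50, 31 and 28 in WT, nearly all of them from Adgrf5. No paralog was called higher in Gpr115-KO, and at this depth a rise of Adgrf1, Adgrf2 or Adgrf3 below these limits could not be detected.

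In WT the family was headed by Adgrf4 at 21.5 ± 0.904 CPM per kb (SD, n = 3), a level above that of 88.2% of the 14720 protein-coding genes in the normalized table. Adgrl1 followed at 6.62 ± 1.69 CPM per kb, then Adgre5 at 3.55 ± 0.557 and Adgre1 at 3.50 ± 0.697 (SD, n = 3 each). Adgrf4 was thus 3.24 times the next receptor in WT, and in Gpr115-KO still 1.82 times Adgrl1. It was the highest receptor per length in each of the 6 libraries. Without the correction for length Adgrl1 led in Gpr115-KO and Adgrf4 came after it, with means of 45.0 and 29.1 CPM.

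Below these came a long plateau. Celsr2 (1.78 CPM per kb), Adgra3 (1.73), Celsr1 (1.52), Adgrl2 (1.48), Adgrg1 (1.44), Adgrd1 (1.32), Adgrl3 (1.28) and Adgrl4 (1.01) took ranks 5 to 12 in WT. They were followed by Adgrg2 (0.809), Adgrg6 (0.599), Adgrf5 (0.396), Adgra2 (0.330) and Adgrb2 (0.320). Of 21 neighbouring pairs among the 22 receptors of the normalized table, 18 had overlapping WT ranges. The exceptions were Adgrf4 over Adgrl1, Adgrl1 over Adgre5, and Adgre1 over Celsr2, so the order within the plateau is not fixed by these libraries. Adgrg3, Adgrb1, Adgrb3, Adgrv1 and Celsr3 closed the list at 0.169 CPM per kb or less. The 8 genes outside the normalized table, Adgra1, Adgre4, Adgrf1, Adgrf2, Adgrf3, Adgrg4, Adgrg5 and Adgrg7, had at most 3 reads in any library, and 2 of them, Adgrf1 and Adgrg4, had none. The pseudogene Adgrd2-ps was not counted as a member.

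**Figure D2:**
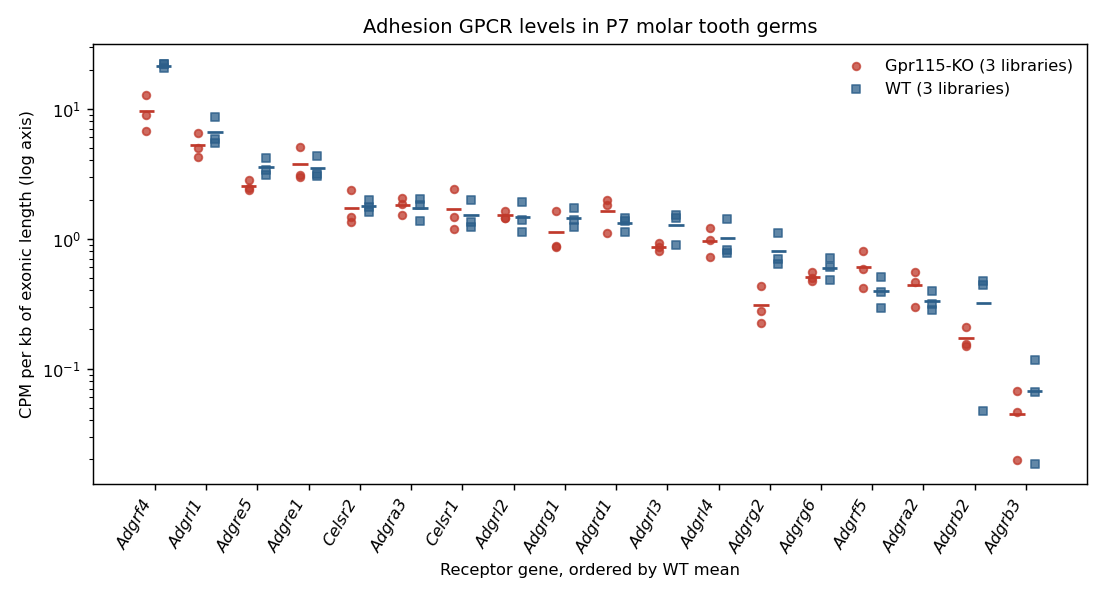
Level of the 18 tested receptors in each library, in CPM per kb of exonic length on a log axis, ordered by the WT mean (points are libraries, lines are group means). Adgrf4 stands at 9.52 CPM per kb in Gpr115-KO and 21.5 in WT, above every other receptor in both groups, and Adgrl1 comes next at 5.24 in Gpr115-KO and 6.62 in WT.

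Between the genotypes no receptor passed the edgeR threshold, neither higher (0.0375% of all genes tested) nor lower (0.112%), against 0.15% in both directions. Of the 18 tested members 11 had a fitted log2 fold change below 0, where 48.7% of all genes did, and the median was −0.15 over the members and 0.01 over all genes. By DESeq2 1 member, Adgrf4, was called lower. Before adjustment over all genes, 4 members had an unadjusted edgeR p under 0.05, all lower in Gpr115-KO, and none was higher. That is 22.2% of the members, against 7.48% of all genes lower and 4.85% higher at the same p. Libraries did not overlap for 3 members, all lower (16.7% of the members, against 8.99% of all genes lower and 8.55% higher). With Adgrf4 set aside, 3 of 17 had such a p and 2 of 17 did not overlap, and the median was −0.06. Members were tested only where enough reads were present, so these shares do not speak for all 30.

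**Figure D3:**
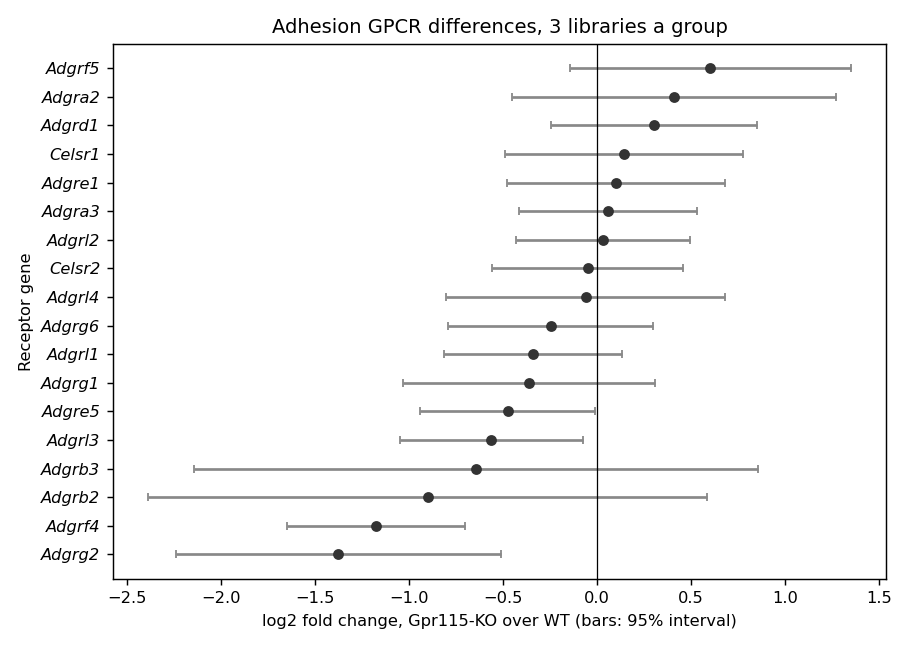
Log2 fold change of the 18 tested receptors, Gpr115-KO over WT, with 95% intervals not adjusted for the number of genes. Adgrg2 and Adgrf4 lie lowest, at −1.38 and −1.18, and the interval of Adgrf5, the highest at 0.60, spans 0.

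Summed over all 30 genes, the family came to 38.9, 31.0 and 34.4 CPM per kb in Gpr115-KO, against 53.2, 47.3 and 48.3 CPM per kb in WT. Adgrf4 made up 33.0%, 21.7% and 26.1% of this sum in Gpr115-KO and 41.3%, 43.1% and 45.6% in WT. The other 29 genes together came to 26.1, 24.3 and 25.4 CPM per kb in Gpr115-KO and 31.2, 26.9 and 26.3 CPM per kb in WT. Per length the sum of the others was lower in Gpr115-KO without overlap, but only narrowly. In CPM without the correction for length it was 209.9, 200.1 and 193.6 in Gpr115-KO and 255.3, 211.2 and 203.4 in WT, where the groups overlapped.

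Adgrg2 showed the largest fitted fall of the family without being called. It encodes a receptor best known from the ducts of the male reproductive tract, where it takes part in fluid uptake. Reads were few, 20, 11 and 16 in Gpr115-KO against 37, 51 and 36 in WT. The levels were 2.28, 1.18 and 1.46 CPM in Gpr115-KO and 3.36, 5.80 and 3.66 CPM in WT, with every Gpr115-KO library below every WT library. The log2 fold change came to −1.38 (SE 0.39, edgeR adjusted p = 0.247). Over the alternatives tried, the lowest adjusted p was 0.0645 and the highest 0.616. The gene lies on the X chromosome (chrX:160390690-160498070).

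Of the other G members Adgrg1, Adgrg6 and Adgrg3 had the most reads. Adgrg5 had 1, 0 and 0 reads in Gpr115-KO and 2, 0 and 1 in WT, Adgrg7 had 0 in each Gpr115-KO library and 0, 1 and 0 in WT, and Adgrg4 had none. Adgrg1 encodes a receptor for collagen III that is known for brain cortex formation, and had 8.89, 4.70 and 4.76 CPM in Gpr115-KO and 9.34, 7.50 and 6.61 CPM in WT. Adgrg6, which in mice is needed for Schwann cells to form myelin, had 6.72, 6.09 and 5.76 CPM in Gpr115-KO and 8.71, 7.39 and 5.89 CPM in WT. Their log2 fold changes of −0.36 (SE 0.30) and −0.25 (SE 0.25) were within the spread between libraries. As a percent of 8 summed Schwann cell and nerve genes Adgrg6 averaged 3.74% ± 0.628 in Gpr115-KO and 4.02% ± 0.714 in WT (SD, n = 3). Adgrg3, a receptor of granulocytes, had 4, 1 and 13 reads in Gpr115-KO and 11, 14 and 9 in WT, too few to be tested. The sum of 8 neutrophil and other leukocyte genes beside it was 26.7 to 43.7 CPM in Gpr115-KO and 14.6 to 28.1 CPM in WT. Of the highest WT sum, in replicate 2, Ptprc alone made up 13.8 CPM, against 2.85 to 9.33 CPM of Ptprc in Gpr115-KO.

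The latrophilins of subfamily L bind teneurins and FLRT proteins on neighbouring cells and are best known from synapses. Adgrl1 (chr8:83900105-83941954) had 55.5, 36.4 and 43.1 CPM in Gpr115-KO and 73.5, 46.7 and 50.4 CPM in WT, overlapping ranges with a fitted log2 difference of −0.34 (SE 0.21, edgeR adjusted p = 0.556). Adgrl3 (chr5:81020138-81825133) had 15.3, 14.3 and 16.6 CPM in Gpr115-KO and 26.8, 25.6 and 15.8 CPM in WT. WT replicate 3 lay inside the Gpr115-KO range and the other WT libraries well above it, and the log2 fold change came to −0.56 (SE 0.22, edgeR adjusted p = 0.344). Adgrl2 had 20.6, 23.3 and 20.6 CPM in Gpr115-KO and 27.1, 19.9 and 16.0 CPM in WT (log2 fold change 0.03, 95% interval −0.43 to 0.49). Adgrl4, an endothelial receptor of vessel growth, had 3.30, 4.49 and 5.49 CPM in Gpr115-KO and 6.53, 3.75 and 3.56 CPM in WT. Its share of the summed endothelial genes averaged 5.60% ± 1.52 in Gpr115-KO and 5.47% ± 1.74 in WT (SD, n = 3). Adgrl1 and Adgrl3 overlap Gm10644 and Gm16054 on the opposite strand over 12.9% and 8.91% of their exonic length, and reads of the pair cannot be told apart in these unstranded libraries.

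Subfamily E is best known from leukocytes. Adgre1 encodes F4/80, the classical surface marker of mouse macrophages, and had 10.03, 9.73 and 16.6 CPM in Gpr115-KO and 10.2, 9.89 and 13.9 CPM in WT. Replicate 3 was the highest library of each group, and the log2 fold change came to 0.10 (SE 0.26, edgeR adjusted p = 0.908). Relative to 8 summed macrophage genes, at 95.6 to 144 CPM in Gpr115-KO and 99.0 to 114 CPM in WT, Adgre1 averaged 9.97% ± 1.86 in Gpr115-KO and 10.5% ± 1.93 in WT (SD, n = 3). Adgre5 encodes CD97, a leukocyte and epithelial receptor for the complement regulator CD55. It had 8.89, 10.7 and 9.15 CPM in Gpr115-KO and 12.6, 15.7 and 11.7 CPM in WT, without overlap (log2 fold change −0.48, SE 0.21, edgeR adjusted p = 0.394). Of its exonic length 23.8% is shared with Ddx39 on the opposite strand, so its reads cannot all be assigned, and Ddx39 itself had a log2 fold change of −0.26. Adgre4, 13.1 Mb from Adgrf4, had 1, 3 and 2 reads in Gpr115-KO and 0 in each WT library. These counts are at or under 3 and give no fold. Of other blood markers, 6 of 6 tested erythroid genes and 5 of 7 tested neutrophil and other leukocyte genes had an unadjusted edgeR p under 0.05 with the higher level in Gpr115-KO, as did 4.85% of all genes, and none passed the adjusted threshold. Erythroid genes summed to 305, 396 and 158.5 CPM in Gpr115-KO and 139, 142 and 158.4 CPM in WT, so that replicate 3 was equal in both groups. What part blood content had in the levels of subfamily E was not tested.

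The Celsr receptors are giant cadherins that line up epithelial cells within their plane, together with frizzled, Vangl, Prickle and dishevelled proteins. Celsr2 had 16.98, 27.1 and 15.4 CPM in Gpr115-KO and 20.2, 18.3 and 23.0 CPM in WT. Celsr1 had 16.1, 26.4 and 13.1 CPM in Gpr115-KO and 14.7, 13.5 and 22.0 CPM in WT. Both were highest in Gpr115-KO replicate 2 and neither differed beyond the spread, the log2 fold change being −0.05 (SE 0.23) for Celsr2 and 0.14 (SE 0.29) for Celsr1. Celsr3, known from axon guidance, had 3, 2 and 7 reads in Gpr115-KO and 3, 4 and 0 in WT and was not tested. As a percent of the general epithelial genes Celsr1 averaged 1.13% ± 0.245 in Gpr115-KO and 0.943% ± 0.240 in WT (SD, n = 3).

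Among 14 planar polarity partners, all of them tested, none was called. The median log2 fold change was 0.02, with 7 above and 7 below 0. Dvl3, a dishevelled adaptor that relays frizzled signals, had 82.4, 74.1 and 90.7 CPM in Gpr115-KO and 122.7, 129 and 122 CPM in WT. Its groups did not overlap, and the fitted log2 difference was −0.59 (SE 0.15, edgeR adjusted p = 0.196). Vangl1, a core membrane protein of the pathway, had 53.8, 46.7 and 30.6 CPM in Gpr115-KO and 116, 68.0 and 72.1 CPM in WT (log2 fold change −0.97, SE 0.26, edgeR adjusted p = 0.231). Its paralog Vangl2 had 47.4, 65.1 and 36.7 CPM in Gpr115-KO and 40.4, 42.7 and 37.9 CPM in WT, with overlap, and the difference between the paralogs was not tested. In all, 3 of the 14 had an unadjusted edgeR p under 0.05, Dvl3, Vangl1 and Prickle1, all lower in Gpr115-KO, where 7.48% of all genes were. The same 3 were the only partners without overlap, and 8.99% of all genes were lower without overlap.

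**Figure D4:**
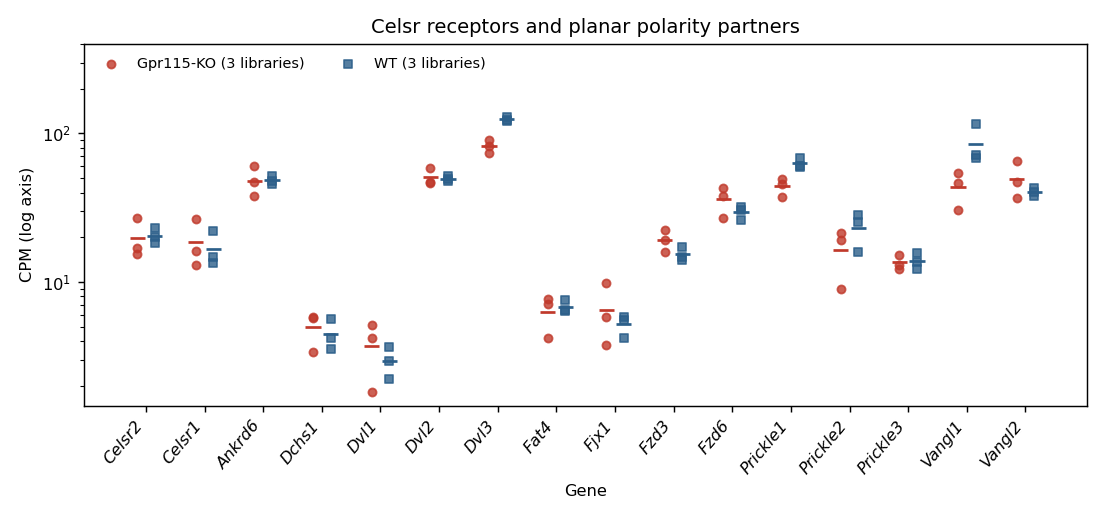
CPM of Celsr2, Celsr1 and 14 planar polarity partners in each library on a log axis (points are libraries, lines are group means). Dvl3, Prickle1 and Vangl1 have all Gpr115-KO points below all WT points, and Celsr1 and Celsr2 overlap.

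In subfamilies A, B and D no tested receptor differed beyond the spread between libraries. Adgra1, Adgrb1 and Adgrv1, the member of subfamily V, had too few reads to be tested. Adgra3, an orphan receptor, had 16.6, 14.96 and 12.3 CPM in Gpr115-KO and 14.7, 16.3 and 11.2 CPM in WT. Adgra2, which in mice works with Reck in Wnt7 signalling of brain vessels, had 1.71, 2.67 and 3.20 CPM in Gpr115-KO and 2.27, 1.82 and 1.63 CPM in WT. Adgrd1 had 15.04, 9.19 and 16.5 CPM in Gpr115-KO and 11.4, 9.43 and 12.1 CPM in WT. The log2 fold changes were 0.06 (SE 0.21), 0.41 (SE 0.39) and 0.30 (SE 0.25). The brain angiogenesis inhibitors of subfamily B were sparse and uneven between libraries. Adgrb2 had 12, 9 and 11 reads in Gpr115-KO and 34, 25 and 3 in WT, and Adgrb1, a receptor for the uptake of dying cells, had 3, 14 and 1 in Gpr115-KO and 19, 4 and 3 in WT. Adgrb3 had 11, 8 and 4 reads in Gpr115-KO and 24, 3 and 12 in WT. Adgrv1, the giant receptor of hair cell bundles, had 4, 9 and 11 reads in Gpr115-KO and 10, 3 and 3 in WT. In this group single libraries decide the means, and WT replicate 3 alone holds the low value of Adgrb2.

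Ligands and signalling partners were listed by what is known of the family. Of 32 ligands and partners 22 were tested and none was called in either direction (median log2 fold change −0.03, 10 above and 12 below 0). Rtn4rl1, a Nogo receptor relative listed beside the partners of subfamily B, had 8.89, 8.66 and 8.14 CPM in Gpr115-KO and 4.53, 6.14 and 4.27 CPM in WT (log2 fold change 0.78, SE 0.25, edgeR adjusted p = 0.268). Tenm3, a teneurin that latrophilins bind, had 4.22, 4.596 and 4.94 CPM in Gpr115-KO and 7.80, 8.64 and 6.00 CPM in WT (−0.70, SE 0.26, edgeR adjusted p = 0.309). In neither gene did the groups overlap, and in neither was the threshold passed. Flrt2, Unc5a and Prnp were also higher without overlap, and Nrxn3, Unc5c and Lama2 lower. Over all genes tested, 8.55% were higher and 8.99% lower without overlap. At an unadjusted edgeR p under 0.05 there were 1 higher and 3 lower ligands or partners of 22, against 4.85% of all genes higher and 7.48% lower.

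Of 15 genes for G protein alpha subunits and arrestins 14 were tested and none was called (median log2 fold change 0.06, 8 above and 6 below 0). Gnaq, whose product links receptors to phospholipase C and calcium release, had 354, 303 and 429 CPM in Gpr115-KO and 613, 556 and 454 CPM in WT. The log2 fold change came to −0.58 (SE 0.19, edgeR adjusted p = 0.288). Gnal, the olfactory type of stimulatory subunit, had 24.8, 11.7 and 32.2 CPM in Gpr115-KO and 33.2, 51.9 and 36.0 CPM in WT (−0.81, SE 0.34, edgeR adjusted p = 0.370). Neither gene's groups overlapped, with Gpr115-KO the lower, and they were the 2 of 14 in this list with an unadjusted edgeR p under 0.05. Gnao1 was also lower without overlap, and Gnai3 was higher without overlap. Over all genes 7.48% were lower at that p, while 8.99% were lower and 8.55% higher without overlap.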

How the data were processed

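RNA of first molars was made into Nextera XT libraries, which do not mark strand, and sequenced as paired 150 nt reads, per the labels' protocols. Per the submitters' processing notes, the build was GRCm38 (mm10) and the tools included STAR 2.5.2a, limma, edgeR and DESeq2; what counted the reads, and with which annotation, is not named there. Raw counts for every gene were deposited for 6 libraries, beside 15 transgene entries kept out of library sizes and tests. They also deposited a normalized signal, CPM scaled by TMM, whose 20162 genes came out as whole reads in 100% of values (within 0.01 reads); the count test on these reads called 6 genes higher and 18 lower.

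The main test on counts was that of edgeR 4.0.16 under R 4.3.3 (filterByExpr, minimum count 10 and minimum total 15, TMM, robust quasi-likelihood F test, two-sided, genotype as the only term), adjusted by Benjamini-Hochberg over 16011 genes and called at 0.05, after a test on simulated data. The SE is the absolute log2 fold change over the root of F. Exonic lengths, coordinates and overlaps are from GENCODE vM21 (GRCm38). blastn 2.17.0 found no other gene with 95% identity over 150 bases to a member except genes overlapping it on the opposite strand. Library pairs of 1 group differed by a chi-square of 16.4 to 68.0 per degree of freedom, above sampling noise.

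Members and lists were chosen with earlier results of these data known. Members described in full are subfamily F, the 8 highest per length in WT and the 4 of smallest p, the others more briefly; of each partner list, called genes or the 2 of smallest p. Prickle1 and Vangl2 were added after their values were seen. The replicate numbers are not stated to pair the libraries, and the correlations of same-numbered deviations were 0.28, 0.03 and −0.06. Alternatives were DESeq2 size factors, library totals, no filter, 10 counts in every library, DESeq2 1.42.0, limma-voom and limma-trend (limma 3.58.1; pseudocount 1), a replicate block, a threshold of 0.1, the recovered reads (added after seeing the data) and each library left out.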

Additional observations from a re-analysis of the deposited data

How the results depend on the processing

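Counts of calls moved with the method. Over all genes, library totals alone gave 11 lower, no count filter 135 higher and 365 lower, DESeq2 64 higher and 179 lower, and an adjusted p under 0.1 gave 16 higher and 35 lower. Leaving out 1 library gave 5 to 10 higher and 7 to 39 lower. Receptors called higher stayed at 0 in every alternative. Receptors called lower were 1, Adgrf4, without the filter, with DESeq2, with the block, at the 0.1 threshold and without Gpr115-KO replicate 1, and 0 to 1 over the left-out libraries. The Adgrf4 log2 fold change passed at −1.18 without the filter, at −1.17 with DESeq2 and at −1.22 with the block, and ran from −1.45 to −0.98 with 1 library left out (edgeR adjusted p 0.0143 to 0.325). The fit with the replicate number as a block called 18 higher and 54 lower genes, and not every library correlated best with its own number. The causes were not tested.

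Of 268 alternative values of the 18 receptors' fold changes, 15 in 7 receptors changed sign, none of them past the threshold. Library totals alone gave 0.0139 for Adgrl4 and 0.0197 for Celsr2. With 1 library left out the ranges were −0.0803 to 0.17 for Adgra3, −1.06 to 0.0395 for Adgrb3, −0.20 to 0.28 for Adgre1, −0.13 to 0.26 for Adgrl2, −0.25 to 0.28 for Adgrl4, −0.20 to 0.39 for Celsr1 and −0.34 to 0.11 for Celsr2. Adgrf4 ranked first in WT under each length and left-out library. Per epithelial genes its log2 difference was −0.69 with Cdh1 and Epcam only and −1.41 to −0.63 with 1 library left out; the geometric mean gave no value because Cldn7 had a count of 0 in 1 or more libraries. Receptors with under about 10 reads a library could not be compared.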

Other observations

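The count table also holds entries for transgene sequences. The lacZ row, a reporter used in some targeted alleles, had 1, 1 and 2 reads in Gpr115-KO and 0, 0 and 3 in WT, so it did not separate the genotypes. Adgrf4 as a percent of 8 keratinizing oral epithelium genes was 15.8%, 62.7% and 106% in Gpr115-KO and 56.4%, 209% and 63.0% in WT. The sum of those 8 genes varied from 26.0 to 248 CPM in Gpr115-KO and from 29.9 to 119 CPM in WT, while Adgrf4 varied far less within WT.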
